A study of Rattus norvegicus with 4 samples.

Results

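The products of the miR-193 and miR-365 hairpins were examined in rat growth plate chondrocytes and in the matrix vesicles (MVs) these cells leave in their matrix. They were taken as every deposited mature miRNA numbered miR-193 or miR-365, whatever its letter or arm, and counts of equal names were to be added together. This gave 6 of the 740 miRNA names, from 3 hairpins: rno-miR-193a-5p and rno-miR-193a-3p from Mir193, rno-miR-193b-5p and rno-miR-193b-3p from Mir193b, and rno-miR-365-5p and rno-miR-365-3p from Mir365b. The species prefix is left out below. Each name came from 1 annotated locus, so no counts had to be added, and all 6 had reads in all 4 libraries.

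Small RNA was sequenced from 4 libraries. RC-cells and GC-cells were chondrocytes from the resting zone and from the growth zone (prehypertrophic and upper hypertrophic) of the costochondral cartilage of male Sprague Dawley rats, both cultured to confluence at passage 4. RC-MVs and GC-MVs were the vesicles released from the cell layers of such cultures by trypsin and pelleted by differential centrifugation. No group was treated, and the medium of all of them held fetal bovine serum and ascorbic acid. The study's methods say that the serum was centrifuged to clear it of bovine exosomes, while the culture protocol in the labels names it without that step. With 1 library per group, no difference had a replicate check and no p-value was computed. Intervals are at the 95% level and cover counting error only, since PCR copies of a molecule were counted as separate reads. Whether fewer cells or vesicles held a miRNA or each held fewer copies cannot be told apart in such bulk libraries.

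A miRNA hairpin is cut by Drosha and Dicer into a duplex of a 5p and a 3p strand. Usually the strand that is loaded into an Argonaute protein persists, and its partner is degraded. The loaded strand finds target mRNAs mainly through its seed, bases 2 to 8 from the 5′ end. miR-365 is known in chondrocytes as a miRNA that responds to mechanical load, and miR-193b as a miRNA linked to SOX9, the transcription factor that keeps cells in the chondrocyte fate. Neither load nor SOX9 was varied here.

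The mature sequences are shown because the arms of these hairpins behaved differently and because their base composition is compared with the counts below. All 6 names matched a RefSeq sequence of the rat assembly GRCr8. They are written 5′ to 3′ with the seed in capitals:
miR-193a-5p: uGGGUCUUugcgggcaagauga
miR-193a-3p: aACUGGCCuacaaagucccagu
miR-193b-5p: gGGGUUUUgagggcgaga
miR-193b-3p: aACUGGCCcacaaaguccc
miR-365-5p: gAGGGACUuucaggggc
miR-365-3p: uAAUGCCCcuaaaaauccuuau

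The 3p strands of miR-193a and miR-193b carried the same seed, ACUGGCC, and no other rat miRNA in the RefSeq table shared it. The other 4 products each had a seed of their own, shared with no other miRNA in the table. Over the 19 annotated bases of miR-193b-3p, the only difference from miR-193a-3p was U9C (the base of miR-193a-3p first, counted from 1 at the 5′ end). When miR-193b-3p was read on in its hairpin to 22 bases, A20G and G21C were added. How reads that fit either strand were assigned is not known, so the split of reads between these 2 strands is uncertain.

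The hairpins are shown with both mature strands in capitals, since the ratios of these strands are the main result:
Mir193: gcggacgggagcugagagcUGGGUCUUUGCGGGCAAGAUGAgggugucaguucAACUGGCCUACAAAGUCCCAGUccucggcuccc
Mir193b: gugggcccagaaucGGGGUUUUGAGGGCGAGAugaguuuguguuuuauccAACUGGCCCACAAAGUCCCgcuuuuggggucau
Mir365b: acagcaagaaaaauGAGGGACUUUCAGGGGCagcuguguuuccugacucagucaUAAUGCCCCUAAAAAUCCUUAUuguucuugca

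In GRCr8 all 3 genes are on the plus strand of chromosome 10. Mir193 and Mir365b follow each other as neighbours inside the span of the protein-coding gene Faul2, and Mir193b lies elsewhere on the chromosome inside the span of a long non-coding RNA gene. The deposited counts, which use the older build Rnor_6.0, list Mir193b on another chromosome record than Mir193 and Mir365b. Of the 8 miRNA genes on that record, 7 are on chromosome 14 in GRCr8. Whether a gene is exonic or intronic was not worked out. A miRNA gene on the opposite strand of Mir193 gives miR-3549, whose sequence is the reverse complement of bases 2 to 20 of miR-193a-5p. It had 0 reads in all 4 libraries, while miR-193a-5p had reads in each.

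The smallest library, GC-MVs, held 982543 reads and the largest, GC-cells, 7414467, with 1108821 in RC-MVs and 6517329 in RC-cells. As a limit of detection, 3 reads were 0.000305% of all miRNA reads for GC-MVs and 4.05e-05% for GC-cells. The 2 reads of miR-365-3p in GC-MVs are below this limit, so folds and ratios that use them have a wide interval and an uncertain size. The cartilage miRNA miR-140-3p made up 0.383% of the reads in RC-cells, 0.506% in GC-cells, 0.951% in RC-MVs and 0.794% in GC-MVs. The other cartilage marker, miR-140-5p, was lower in the MVs, at 0.0710% in RC-cells, 0.0808% in GC-cells, 0.00848% in RC-MVs and 0.0216% in GC-MVs. Markers of other tissues moved with the MVs. The 6 blood miRNAs measured summed to 0.00124% in RC-cells and 0.00121% in GC-cells but to 0.0885% in RC-MVs and 0.190% in GC-MVs, and miR-223-3p was at 0 in GC-cells. The liver miRNA miR-122-5p was at 0.000491% in RC-cells against 0.401% in RC-MVs, and at 0.000459% in GC-cells against 1.14% in GC-MVs. The 4 skeletal muscle miRNAs summed to 0.000368% in the cells and 0.00171% in the MVs of the resting zone, and to 0.000715% and 0.00733% in the growth zone, with miR-133a-3p and miR-133b-3p at 0 in RC-cells and miR-1-3p at 0 in RC-MVs. The part of these markers in the MV values below was not tested.

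miR-365-3p was the most abundant of the 6 products in both cell libraries and the rarest in both MV libraries. RC-cells had 1002 reads of it, which was 154 reads per 1000000 miRNA reads (RPM, 95% interval 145 to 164), and GC-cells had 1466, or 198 RPM (188 to 208). RC-MVs held 4 reads, or 3.61 RPM (1.40 to 9.28), and GC-MVs had 2, or 2.04 RPM (0.558 to 7.42). The intervals of the MV libraries overlapped each other and lay far below those of the cells. Had the MVs held the same share as their cells, 170 reads would have been counted in RC-MVs and 194 in GC-MVs, so that the depth sufficed to see a difference but, with so few reads left, not to fix its size. Relative to their cells, RC-MVs held a 42.6-fold lower share (95% interval 16.6 to 157) and GC-MVs a 97.1-fold lower share (26.8 to 803).

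The other strand of the same hairpin, miR-365-5p, moved the opposite way. It had 73 reads in RC-cells (11.2 RPM, 95% interval 8.91 to 14.1) and 167 in GC-cells (22.5 RPM, 19.4 to 26.2). In RC-MVs it had 148 reads (133 RPM, 114 to 157) and in GC-MVs 144 (147 RPM, 124 to 173). Relative to their cells, RC-MVs held an 11.9-fold higher share (8.94 to 16.0) and GC-MVs a 6.51-fold higher share (5.17 to 8.18). The MV libraries, with overlapping intervals, were above both cell libraries.

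**Figure D1:**
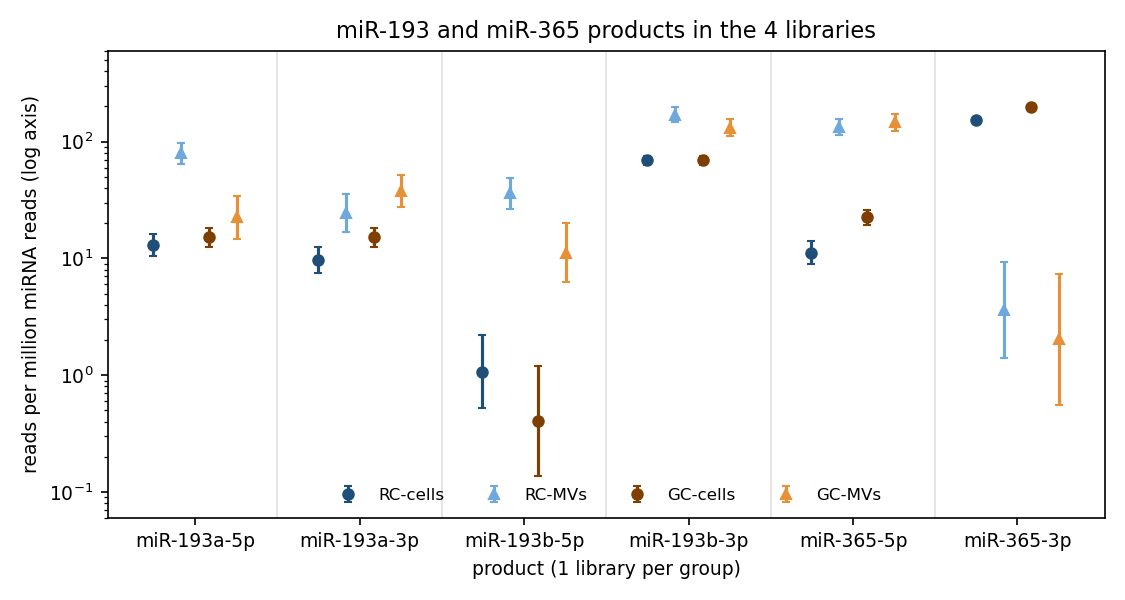
RPM (reads per 1000000 miRNA reads) on a log axis for the 6 products in the libraries of cells and MVs of both zones; points are single libraries and bars are 95% Wilson intervals for counting error. miR-365-3p was at 154 and 198 RPM in the cells and at 3.61 and 2.04 RPM in the MVs, while miR-365-5p was higher in both MV libraries.

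Among the 414 miRNAs with reads in both RC-MVs and RC-cells, miR-365-3p had the 2nd lowest ratio, and among the 417 of the growth zone it had the lowest. These ranks leave out miRNAs without MV reads. When the 250 miRNAs abundant in cells (100 reads or more in each cell library) were ranked, 4 of which had no reads in RC-MVs and 4 none in GC-MVs, miR-365-3p was 6th and 5th from the lowest ratio. miR-365-5p ranked 23rd from the highest in the resting zone and 43rd in the growth zone.

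Added together, the 2 strands of Mir365b differed less. Their sum was 165 RPM in RC-cells and 137 in RC-MVs, a ratio of 0.831 (95% interval 0.697 to 0.986). In the growth zone it was 220 RPM in GC-cells and 149 in GC-MVs, a ratio of 0.675 (0.566 to 0.800). The balance between the strands differed by far more. In RC-cells 93.2% of the Mir365b reads were the 3p strand, and in GC-cells 89.8%. In RC-MVs 97.4% were the 5p strand (93.4% to 99.0%) and in GC-MVs 98.6% (95.1% to 99.6%). There were 13.7 3p reads per 5p read in RC-cells (10.8 to 17.7) and 8.78 in GC-cells (7.48 to 10.4), against 37.0 5p reads per 3p read in RC-MVs (14.2 to 138) and 72.0 in GC-MVs (19.6 to 600). This ratio within a library needs no scaling between libraries.

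**Figure D2:**
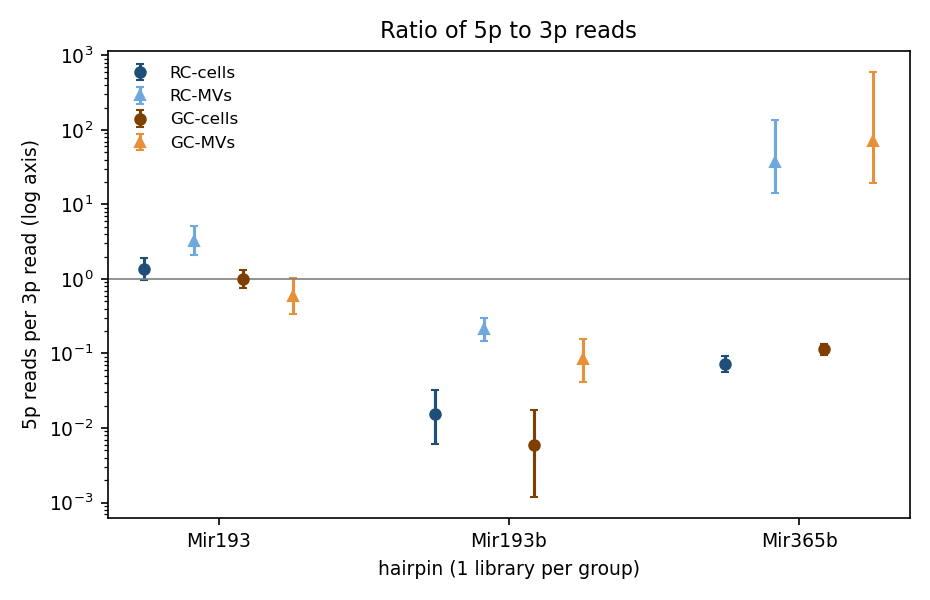
Reads of the 5p strand per read of the 3p strand on a log axis for the 3 hairpins in the 4 libraries; bars are exact Clopper-Pearson 95% intervals and the line marks equal reads. Mir365b lies below the line in both cell libraries (0.0729 and 0.114) and above it in both MV libraries (37.0 and 72.0), whereas Mir193b stays below it in all 4.

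Set against all hairpins with reads of both strands in the libraries compared, the shift of Mir365b had the largest value in either direction in both zones. From RC-cells to RC-MVs its 5p to 3p ratio was 508-fold higher (exact conditional 95% interval 184 to 1918), 1st of 158 hairpins. In the growth zone it was 632-fold higher (168 to 5286), 1st of 156. These ranks rest on 4 and 2 reads of miR-365-3p. They leave out hairpins with a strand that had no reads in either of the libraries compared, whose shift could not be computed. The low ends of the intervals lie below the shifts of Mir92b (log2 8.02) and Mir129-2 (log2 7.83) in the resting zone and of Mir328 (log2 7.47) in the growth zone, so that 1st place is not fixed within counting error. The median absolute log2 shift was 1.91 (resting zone) and 1.71 (growth zone), while that of Mir365b was 8.99 and 9.30. Among hairpins with at least 100 reads of both strands together in each library, the strand with more reads changed between cells and MVs in 13 of 130 hairpins (10.0%) of the resting zone and in 6 of 122 (4.92%) of the growth zone. Mir365b was among them in both zones and Mir193b in neither. Mir193 did not change in the resting zone and had too few reads in GC-MVs to be counted in the growth zone.

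**Figure D3:**
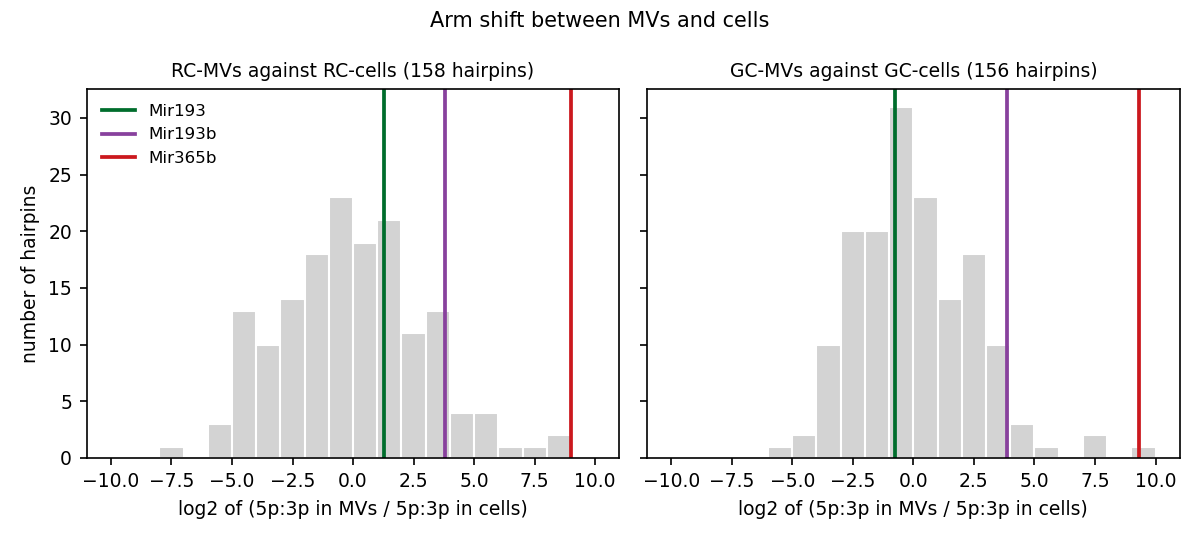
Number of hairpins by the log2 change of the 5p to 3p ratio from cells to MVs, for the resting zone (158 hairpins) and the growth zone (156); coloured lines mark Mir193, Mir193b and Mir365b. Mir365b has the highest values, 8.99 and 9.30, and Mir193b is at 3.78 and 3.86.

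miR-193b-3p, the main strand of its hairpin, was the miR-193 product with the most reads in each library. There were 452 reads in RC-cells (69.4 RPM, 95% interval 63.2 to 76.0) and 512 in GC-cells (69.1 RPM, 63.3 to 75.3). On these shares the cells of the zones did not differ beyond counting error. Under the other scalings tried, given below, the ratio of RC-cells to GC-cells fell below its counting interval. There were 188 reads in RC-MVs (170 RPM, 147 to 196) and 129 in GC-MVs (131 RPM, 111 to 156). Both MV libraries were above both cell libraries, by 2.44-fold in the resting zone (2.05 to 2.90) and by 1.90-fold in the growth zone (1.56 to 2.31). In the growth zone the ratio was thus below 2-fold. With the 3 abundant miRNAs miR-143-3p, miR-21-5p and miR-22-3p left out of the totals it was 2.04.

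Its partner strand miR-193b-5p was close to the limit of detection in the cells. It had 7 reads in RC-cells (1.07 RPM, 0.520 to 2.22) and 3 in GC-cells (0.405 RPM, 0.138 to 1.19). In RC-MVs it had 40 (36.1 RPM, 26.5 to 49.1) and in GC-MVs 11 (11.2 RPM, 6.25 to 20.0). The order was RC-MVs, GC-MVs, RC-cells and GC-cells, and only the cell libraries at the low end had overlapping intervals. The ratio of MVs to cells was 33.6 in the resting zone (14.9 to 88.9) and 27.7 in the growth zone (7.31 to 154). The 3p strand nevertheless held most of the Mir193b reads everywhere. Its part was 98.5% in RC-cells, 99.4% in GC-cells, 82.5% in RC-MVs (77.0% to 86.8%) and 92.1% in GC-MVs (86.5% to 95.6%). Compared with the cells, the 5p to 3p ratio of Mir193b was 13.7-fold higher in RC-MVs (5.93 to 36.9) and 14.6-fold higher in GC-MVs (3.75 to 82.0), 14th of 158 and 8th of 156 hairpins from the highest.

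The strands of Mir193 had similar read numbers in the cells. miR-193a-5p had 85 reads in RC-cells (13.0 RPM, 10.5 to 16.1) and 112 in GC-cells (15.1 RPM, 12.6 to 18.2), and miR-193a-3p had 63 (9.67 RPM, 7.56 to 12.4) and 112 (15.1 RPM, 12.6 to 18.2). In RC-MVs there were 88 reads of miR-193a-5p (79.4 RPM, 64.4 to 97.8) and 27 of miR-193a-3p (24.4 RPM, 16.7 to 35.4). GC-MVs held 22 reads of miR-193a-5p (22.4 RPM, 14.8 to 33.9) and 37 of miR-193a-3p (37.7 RPM, 27.3 to 51.9). miR-193a-5p therefore stood out in RC-MVs, where its interval overlapped with no other library. It was 6.09-fold higher there than in RC-cells (4.46 to 8.30), while GC-MVs were 1.48-fold above GC-cells with an interval from 0.893 to 2.36. miR-193a-3p was higher in the MVs by 2.52-fold in the resting zone (1.54 to 4.01) and by 2.49-fold in the growth zone (1.67 to 3.64).

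The 5p to 3p ratio of Mir193 was 1.35 in RC-cells (0.963 to 1.90) and 1.00 in GC-cells (0.763 to 1.31). It was 3.26 in RC-MVs (2.10 to 5.22) and 0.595 in GC-MVs (0.334 to 1.03). RC-MVs exceeded RC-cells 2.42-fold in this ratio (1.36 to 4.33), whereas GC-MVs against GC-cells gave 0.595 with an interval from 0.313 to 1.11 that held 1. Between the MVs it was 5.48-fold higher in RC-MVs (2.63 to 11.5), 6th of 144 hairpins from the highest.

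All 6 products could be compared in each comparison. Between RC-MVs and RC-cells, 6 differed by at least 2-fold either way, against 64.0% of all miRNAs. In the MVs 5 were at least 2-fold higher, against 33.6% of all miRNAs, and 1 was at least 2-fold lower, against 30.4%. The median log2 ratio of the 6 was 1.97, and that of all 414 miRNAs 0.08. Between GC-MVs and GC-cells, 4 differed by at least 2-fold either way, against 57.3% of all miRNAs. In the MVs 3 were at least 2-fold higher, against 32.1% of all miRNAs, and 1 was lower, against 25.2%. Here the median log2 ratio was 1.12 for the 6 and 0.13 for all 417. The strands of a hairpin come from the same transcript, so the 6 products are not independent observations.

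**Figure D4:**
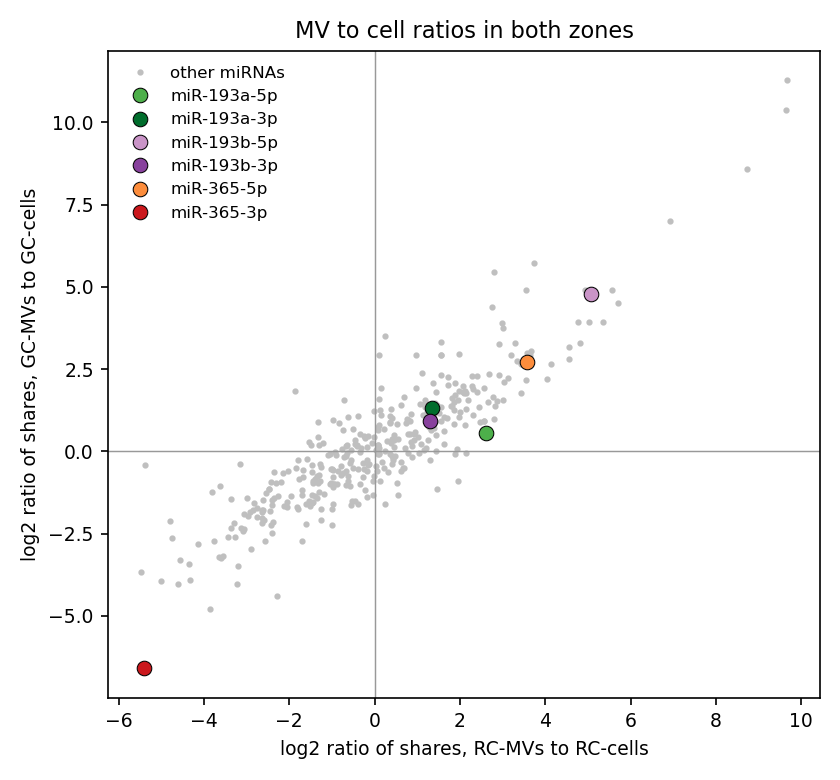
Log2 ratio of shares of MVs to cells in the growth zone against that in the resting zone, for the 384 miRNAs with reads in all 4 libraries; coloured points are the 6 products. miR-365-3p lies at the lower left corner (-5.41 and -6.60) and the other 5 products lie above 0 on both axes.

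Summed over the 6 products, the share was 0.0258% of the miRNA reads in RC-cells, 0.0320% in GC-cells, 0.0446% in RC-MVs and 0.0351% in GC-MVs. Within this sum, miR-365-3p took 59.6% in RC-cells and 61.8% in GC-cells but 0.808% in RC-MVs and 0.580% in GC-MVs. The ratio of MVs to cells for the 6 together was 1.73 in the resting zone (1.56 to 1.91). In the growth zone it was 1.10, with an interval from 0.978 to 1.23 that held 1. Leaving out miR-365-3p, already seen to be lower in the MVs, could only raise these ratios. For the other 5 together they were 4.24 in the resting zone (3.77 to 4.77) and 2.86 in the growth zone (2.52 to 3.24). miR-365-3p had 2.22 reads per read of miR-193b-3p in RC-cells (1.98 to 2.48) and 2.86 in GC-cells (2.59 to 3.17). In the MVs the order was turned, with 47.0 reads of miR-193b-3p per read of miR-365-3p in RC-MVs (18.1 to 174) and 64.5 in GC-MVs (17.5 to 538).

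The proportion of the paralogous 3p strands, which depends on the uncertain split of their reads, overlapped in its interval between cells and MVs of each zone. There were 7.17 reads of miR-193b-3p per read of miR-193a-3p in RC-cells (5.50 to 9.49) and 6.96 in RC-MVs (4.64 to 10.8), and 4.57 in GC-cells (3.72 to 5.66) and 3.49 in GC-MVs (2.40 to 5.17). For the 5p strands the order was the reverse, with miR-193a-5p above miR-193b-5p by 12.1-fold in RC-cells (5.64 to 31.1), 37.3-fold in GC-cells (12.5 to 184), 2.20-fold in RC-MVs (1.50 to 3.28) and 2.0-fold in GC-MVs (0.930 to 4.57).

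The zones were compared next. Between RC-cells and GC-cells, miR-365-3p was 1.29-fold lower in RC-cells (1.19 to 1.40), miR-193a-3p 1.56-fold lower (1.14 to 2.16) and miR-365-5p 2.01-fold lower (1.52 to 2.69), a ratio that just passed 2-fold while its interval did not. Thus 1 product was at least 2-fold lower, against 5.70% of all 474 miRNAs. With 7 reads against 3, miR-193b-5p had a ratio of 2.65 (0.606 to 15.9) and was the 1 product counted as at least 2-fold higher, against 13.7%, with 19.4% of all miRNAs differing either way. Over all miRNAs the balance of 65 higher and 27 lower turned with the scaling, to 34 and 51 with TMM, 32 and 53 with DESeq2 size factors and 35 and 51 without the abundant miRNAs. With DESeq2 size factors miR-193a-3p also passed 2-fold lower and 3 products differed by at least 2-fold, against 17.9% of all miRNAs. The ratio of miR-193b-3p was 1.00 (0.883 to 1.14), and between 0.784 and 0.806, below this interval, under the other scalings tried. The median log2 ratio was -0.29 for the 6 products and 0.24 for all miRNAs.

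Between RC-MVs and GC-MVs, miR-193a-5p was 3.54-fold higher in RC-MVs (2.20 to 5.94) and miR-193b-5p 3.22-fold higher (1.62 to 6.96). These were the 2 products at least 2-fold higher in RC-MVs, against 24.7% of all 397 miRNAs, and 0 were at least 2-fold lower, against 14.6%, with 39.3% of all miRNAs differing either way. miR-193b-3p was 1.29-fold higher in RC-MVs (1.03 to 1.63), a direction that turned to 0.834 with the 3 abundant miRNAs left out of the totals. With these totals miR-193a-5p was 2.29-fold and miR-193b-5p 2.08-fold higher, and miR-193a-3p went from 0.647 to 0.418, so that 3 products differed by at least 2-fold, 2 higher and 1 lower, while over all miRNAs 98 higher and 58 lower became 40 higher and 123 lower. The intervals of miR-193a-3p (0.379 to 1.09), miR-365-5p (0.911, 0.719 to 1.15) and miR-365-3p (1.77, 0.254 to 19.6) held 1. Without the 3 abundant miRNAs in the totals, miR-365-5p was at 0.588, below its interval. The median log2 ratio was 0.60 for the 6 products and 0.15 for all miRNAs.

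The products also differed in base composition, which was not used to choose them. G and C made up 31.8% of miR-365-3p, 50.0% of miR-193a-3p, 54.5% of miR-193a-5p, 57.9% of miR-193b-3p, 61.1% of miR-193b-5p and 64.7% of miR-365-5p. The lowest content thus belonged to the strand that was lower in MVs, and the 2 highest to the strands with the highest MV to cell ratios. These 2 strands were also the shortest as annotated, with 17 bases in miR-365-5p and 18 in miR-193b-5p. miR-193b-3p had 19 bases and the others, miR-365-3p among them, had 22. Across 222 miRNAs with a RefSeq sequence, MV reads and at least 100 reads in both cell libraries, G and C content and the log2 ratio of MVs to cells had a Spearman rho of 0.57 (resting zone) and 0.45 (growth zone). This is a description across miRNAs that share the same libraries and are not replicates. The part of base composition or of length in the arm ratios was not tested.

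**Figure D5:**
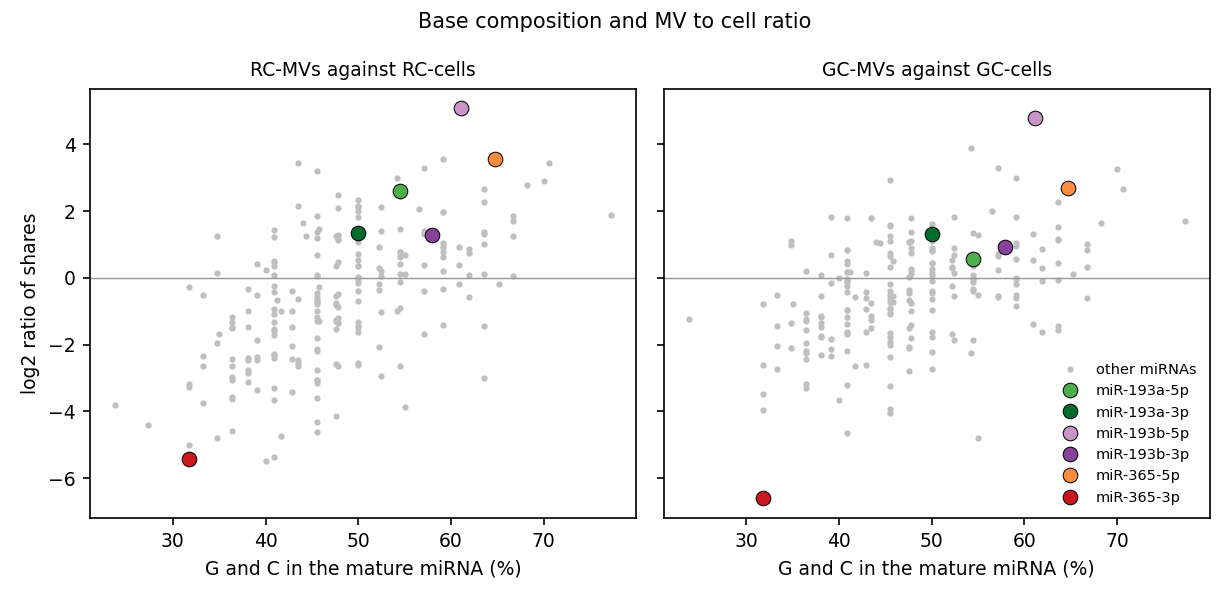
Log2 ratio of shares of MVs to cells against the percent of G and C in the mature miRNA, in the resting zone (left) and the growth zone (right); grey points are other miRNAs with at least 100 reads in both cell libraries and coloured points are the 6 products, of which miR-193a-5p, miR-193a-3p, miR-193b-5p and miR-365-5p had fewer. miR-365-3p, with 31.8% G and C, is the lowest of the 6 in both panels.

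A list of 9 cartilage and SOX9-linked miRNAs, chosen like the products with earlier results of these data known, gave a comparison. Of these, 7 had reads in the libraries compared. In RC-MVs against RC-cells 1 was at least 2-fold higher and 3 were lower, and in GC-MVs against GC-cells 0 were higher and 3 were lower, with a median log2 ratio of -0.51 in both zones. Over all miRNAs, 33.6% were higher and 30.4% lower in the resting zone and 32.1% and 25.2% in the growth zone. miR-140-3p, from an intron of the chondrocyte gene Wwp2, was 2.48-fold higher in RC-MVs (2.43 to 2.54) and 1.57-fold higher in GC-MVs (1.53 to 1.61). Its partner miR-140-5p, which is known to act in cartilage development, was 8.37-fold lower in RC-MVs (6.83 to 10.4) and 3.75-fold lower in GC-MVs (3.27 to 4.32). The others at least 2-fold lower in both zones were miR-455-5p (2.66-fold and 2.57-fold) and miR-495 (2.76-fold and 2.95-fold). miR-455-3p, miR-145-5p and miR-101a-3p stayed within 2-fold between MVs and cells. miR-675-5p had 0 reads in all 4 libraries and miR-675-3p 1 read, in GC-cells. Of the 7, 0 were at least 2-fold higher and 1, miR-140-5p, was lower in RC-MVs than in GC-MVs (2.55-fold, 1.99 to 3.28), against 24.7% and 14.6% of all miRNAs. Between the cells 0 differed by 2-fold, against 19.4% of all.

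For the product with the most reads of each hairpin, the miRNAs with the most similar profile over the 4 libraries were found by the distance between centred log2 shares, among miRNAs with at least 100 reads in every library. Nearest to miR-193b-3p were miR-152-3p at a distance of 0.22, miR-652-3p at 0.29 and miR-99b-3p at 0.32, with a median distance of 1.50 to all 130 miRNAs. miR-193a-5p was nearest to miR-152-5p at 0.32, miR-185-5p at 0.40 and miR-30c-2-3p at 0.46, with a median of 2.08. Among these miRNAs, let-7f-5p was nearest to miR-365-3p at 2.71, with miR-411-5p at 2.84, miR-26a-5p at 3.48 and a median of 6.22. miR-365-3p, with 4 and 2 MV reads, itself falls short of 100 reads, and miRNAs as rare in MVs could not be candidates, so these distances do not show how far its profile stands from all others. miR-193a-5p had fewer than 100 reads in 3 libraries, and its distances carry that counting error as well. With 4 values per miRNA, likeness could not be tested.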

How the data were processed

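The authors sequenced small RNA on a HiSeq instrument, aligned the reads to the rat build Rnor_6.0 with Bowtie2, tabulated them with miARma-Seq and deposited raw read counts for 774 annotated miRNA loci. How reads were trimmed, and how those matching more than 1 locus or running past an annotated end were handled, is not given in the sources used here.

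Counts of loci with equal names were added, and shares were taken of the library's total miRNA reads, the scale the study used. Ratios of shares and of arms have exact Clopper-Pearson intervals, shares have Wilson intervals, and ratios of arm ratios have exact conditional intervals. A ratio of at least 2-fold with at least 1 read in both libraries was counted as a difference. This rule was tried on simulated counts with counting error only, so the trial does not cover variation between replicate libraries. The members and lists were chosen with earlier results of these data known. All 6 products are named, with the 3 miRNAs nearest in profile to the main product of each hairpin, and the lists of cartilage and SOX9-linked, blood, skeletal muscle and liver miRNAs. Alternatives were TMM normalization (edgeR 4.0.16), size factors (DESeq2 1.42.0), totals without 3 abundant miRNAs, a pseudocount of 0.5, each locus as deposited, at least 10 reads, whole intervals beyond 2-fold, and 4-fold. Python 3.11.15, scipy 1.17.1 and R 4.3.3 were used. Values of the PCR array were not used here.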

Additional observations from a re-analysis of the deposited data

Results flagged for a closer look

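For 2 products, the ratio of the resting zone to the growth zone lay on opposite sides of 1 in the cells and in the MVs. For each of them, 1 of the 2 intervals held 1. How common such a pattern was among all miRNAs was not worked out, so the count does not set these products apart. miR-193a-5p had a ratio of 0.863 between RC-cells and GC-cells (95% interval 0.643 to 1.15) and of 3.54 between RC-MVs and GC-MVs (2.20 to 5.94). miR-365-3p had a ratio of 0.778 between the cells (0.717 to 0.843) and of 1.77 between the MVs, where 4 reads against 2 gave an interval from 0.254 to 19.6. With TMM normalization miR-193b-3p also lay on opposite sides of 1, at 0.796 between the cells and 1.12 between the MVs. With DESeq2 size factors it was at 0.784 and 1.09. Without the 3 abundant miRNAs in the totals, both of its ratios were below 1, at 0.806 and 0.834. With 1 library per group, none of these differences between cells and MVs was tested.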

How the results depend on the processing

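No paired analysis was possible because each group had 1 library and the ratios came from no replicated test. TMM normalization, DESeq2 size factors and totals without miR-143-3p, miR-21-5p and miR-22-3p moved all log2 ratios by -0.09, -0.04 and -0.21 between RC-MVs and RC-cells, by -0.22, -0.15 and 0.10 between GC-MVs and GC-cells, by -0.20, -0.25 and -0.63 between RC-MVs and GC-MVs, and by -0.34, -0.36 and -0.32 between RC-cells and GC-cells. Of the 24 ratios of shares, 22, 22 and 20 stayed inside their counting interval under these scalings, and all 24 did with a pseudocount of 0.5. Under these settings no ratio of at least 2-fold changed direction, and the 12 arm ratios stayed inside their intervals with the pseudocount. Of the 24 shares, 21 left their interval without the 3 abundant miRNAs. Keeping each locus as deposited changed no value.

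Among the 6 products, the number at least 2-fold different between RC-MVs and RC-cells was 6, against 64.0% of all miRNAs. With at least 10 reads, whole intervals beyond 2-fold and 4-fold it was 4, 5 and 4, against 62.8%, 43.2% and 34.5%. Between GC-MVs and GC-cells the number was 4, against 57.3% of all miRNAs. Under these rules it was 2, 3 and 3, against 52.4%, 32.1% and 24.2%, and 5 without the abundant miRNAs, against 58.3%. The minimum of 10 reads leaves out miR-365-3p and miR-193b-5p in both, so that only 4 products were compared. Between RC-MVs and GC-MVs the number was 2, against 39.3% of all miRNAs, and 3 without the abundant miRNAs, against 41.1%. It was 1 with the whole interval beyond 2-fold, against 15.4%, and 0 at 4-fold, against 8.06%. Between RC-cells and GC-cells the number was 2, against 19.4% of all miRNAs, and 3 with DESeq2 size factors, against 17.9%. With at least 10 reads it was 1 of the 5 products compared, against 13.2%. It was 0 with whole intervals and 0 at 4-fold, against 5.06% and 4.22%. Over all miRNAs, 265 differed between RC-MVs and RC-cells, and 184, 179 and 143 with at least 10 reads, whole intervals and 4-fold. With at least 10 reads, whole intervals and 4-fold, 239 became 144, 134 and 101 between GC-MVs and GC-cells, 156 became 97, 61 and 32 between the MVs, and 92 became 50, 24 and 20 between the cells, as fewer miRNAs were compared or the rule was stricter. The percent of differences higher in the resting zone was 62.8 between the MVs, and 51.0, 46.4 and 24.5 under the 3 scalings. It was 70.7 between the cells, and 40.0, 37.6 and 40.7. Depth limits the size of the ratios of miR-365-3p, with 4 and 2 MV reads, and of miR-193b-5p, with 7 and 3 cell reads.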
